A study of Drosophila melanogaster with 12 samples.

Results

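The dosage compensation machinery of the fly is described here through 7 genes, the noncoding RNAs roX1 and roX2 and the protein-coding genes msl-1, msl-2, msl-3, mle and mof, chosen by their symbols among the 15339 genes of a count table and a TPM table. The 12 libraries held RNA of type II neuroblasts sorted from Drosophila melanogaster larvae of 4 ages, 24, 36, 50 and 84 h counted from hatching, and each age had 3 libraries. Larvae were synchronised within 2 h and raised at 25 °C, each sample came from 30 dissected brains of unstated sex, and 93 to 132 GFP-labelled cells were pooled for each library. The labels used here name no driver for the GFP, no genotype and no strain, and no treatment distinguishes the groups. The study's title concerns gradients of temporal factors set off by Seven-up, and the comparisons below ask at which ages the dosage compensation transcripts differed. Whether libraries of an age came from separate dissections is not stated, so the p-values reflect library-to-library spread only, and that spread may be technical.

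In flies, dosage compensation raises transcription of the single X chromosome of males. It is carried out by the MSL complex, in which MSL1 is the scaffold, MSL2 the male-limiting RING finger protein, MSL3 a chromodomain protein, MLE an RNA helicase and MOF the acetyltransferase that marks histone H4. A roX RNA is built in by MLE, and the 2 RNAs differ in length and sequence yet can stand in for each other in males. In females the Sex-lethal protein blocks msl-2 translation, so the complex does not form, while mof, mle and msl-1 are transcribed in both sexes. The share of male cells in a library was not measured. In pooled samples such as these, a difference in that share and one in RNA per cell cannot be told apart. The number of sorted cells is recorded for each library.

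The members stood far apart in level. In deposited TPM, which allows for gene length, roX1 averaged 2366 ± 604 (SD, n = 12 libraries), 34.4 times the mean of msl-1, the next in order. The mean TPM of msl-1 was 68.7, that of mle 44.3, that of msl-3 37.1, that of mof 32.6 and that of msl-2 31.3. roX2 stood last at 5.56 TPM, and the mean TPM of roX1 was 426 times that of roX2. By library the order was firm at both ends. The TPM of roX1 was above that of msl-1 in 12 of 12 libraries, and that of msl-2 was above that of roX2 in 12 of 12. msl-1 exceeded mle in 11. Between the neighbours after that it was not: mle exceeded msl-3 in 7 libraries, msl-3 exceeded mof in 9, and mof exceeded msl-2 in 6, and each of these differences in mean TPM was smaller than the SD over libraries. Among the 7978 genes tested, roX1 ranked 10 by mean CPM, and roX2 ranked 6721. roX1 (FBgn0019661), roX2 (FBgn0019660) and mof (FBgn0014340) lie on the X chromosome, msl-1 (FBgn0005617) and msl-2 (FBgn0005616) on 2L, msl-3 (FBgn0002775) on 3L and mle (FBgn0002774) on 2R.

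All 7 members passed the filter on low counts, and roX2 would have passed it without the 24 h libraries too. Tests used edgeR's quasi-likelihood fit on all 7978 genes, with Benjamini-Hochberg adjustment over all of them and a threshold of 0.05. Levels are CPM, the field's usual depth-corrected counts, after TMM scaling, with SD and n = 3 per age. Gene counts per library ran from 4512098 to 8391731, and a floor of 3 counts is 0.357 to 0.665 unscaled CPM. In the test for any difference between ages, roX1 (adjusted p = 0.00591) and msl-1 (adjusted p = 0.0399) passed, 2 of 7 members beside 19.5% of all genes. roX2 had an adjusted p of 0.0965 there (0.0206 with DESeq2, which called 25% of all genes), mof 0.228, msl-3 0.372, msl-2 0.402 and mle 0.784. The call of msl-1 was lost when any 1 library was left out other than 24 h replicate 3 and 36 h replicate 3, with adjusted p of 0.0502 to 0.134. That of roX1 was lost without 50 h replicate 2, with an adjusted p of 0.058.

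In CPM after TMM scaling, roX1 was most abundant at 50 h and least at 84 h. Its CPM was 4333, 3806 and 3945 in the 24 h libraries, 4660, 4035 and 3347 at 36 h, 5065, 6046 and 5144 at 50 h, and 3626, 2898 and 2850 at 84 h. All 3 libraries at 50 h lay above all 9 others, and all 3 at 84 h lay below those at 24 h and 50 h but overlapped with those at 36 h. The mean level was 4028 ± 273 CPM at 24 h, 4014 ± 657 at 36 h and 5418 ± 545 at 50 h, against 3125 ± 435 at 84 h. As a share of gene counts, with no scaling, roX1 took 0.348%, 0.376%, 0.576% and 0.358% on average at the 4 ages in turn. By this share its lowest mean was at 24 h.

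The change that passed a test was the fall from 50 h to 84 h, in which roX1 dropped by 0.79 ± 0.16 (SE) on the log2 scale, a level 1.73-fold lower (edgeR, adjusted p = 0.00496). It was the only one of 7 members called in that comparison, where 3.06% of all genes were called, and the only one whose libraries did not overlap, beside 22.1% of all genes. Without 50 h replicate 2 the log2 change was -0.70 with an adjusted p of 0.0626. When libraries were scaled to their ERCC spike-in totals it was -1.29 with an adjusted p of 0.956.

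The step up of roX1 from 36 h to 50 h was 0.43 ± 0.16 on the log2 scale and did not pass (edgeR, adjusted p = 0.138), although the libraries did not overlap. From 24 h to 50 h the log2 difference was also 0.43 ± 0.16 (adjusted p = 0.0673). Both passed with library sizes unscaled by TMM, with values of 0.62 (adjusted p = 0.00129) and 0.73 (adjusted p = 8.09e-05). With limma on log2(TPM + 1) the adjusted p was 0.0421 and 0.0122, and with the replicate number as a block 0.0483 and 0.0254. The second also passed under ERCC scaling (2.34, adjusted p = 0.00266), where the median of all genes was 1.98. Of 21 alternatives, 4 called the first and 7 the second. From 24 h to 36 h the log2 difference was -0.01 ± 0.16 (adjusted p = 0.993). At 84 h against 24 h it was -0.37 ± 0.16 (adjusted p = 0.11), with libraries that did not overlap, and it stood above 0 with unscaled library sizes and under ERCC scaling. Without 84 h replicate 1 the differences of roX1 from 24 h passed at 50 h (0.42, adjusted p = 0.0406) and at 84 h (-0.49, adjusted p = 0.0369).

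roX2 was highest at 24 h and lowest at 84 h. The libraries held 45, 27 and 49 roX2 counts at 24 h, 13, 13 and 9 at 36 h, 26, 6 and 8 at 50 h, and 9, 7 and 0 at 84 h. In CPM these were 6.71, 4.14 and 10.4 at 24 h, 2.89, 2.82 and 1.77 at 36 h, 4.19, 1.26 and 1.58 at 50 h, and 1.55, 1.05 and 0 at 84 h. The 24 h libraries lay above all those at 36 h and 84 h, and only 50 h replicate 1 reached into their range. The mean was 7.10 ± 3.17 CPM at 24 h, 2.49 ± 0.63 at 36 h and 2.34 ± 1.61 at 50 h, against 0.865 ± 0.789 at 84 h.

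At 84 h, compared with 24 h, roX2 had dropped by 2.99 ± 0.95 on the log2 scale, a fitted level 7.97-fold lower (edgeR, adjusted p = 0.0288). With msl-1, described below, it made 2 of 7 members called in that comparison, beside 18.9% of all genes. The call rests on few counts: the 24 h libraries held 121 in all and the 84 h libraries 16, and the 0 in 84 h replicate 3 allows up to 3.69 counts by an exact 95% Poisson interval, which covers counting error only. It was lost without 24 h replicate 3 (log2 change -2.60, adjusted p = 0.0881), without 84 h replicate 2 (-3.15, adjusted p = 0.0812) and without 84 h replicate 3 (-2.43, adjusted p = 0.105), and under ERCC scaling (-1.89, adjusted p = 0.201). In the steps between neighbouring ages the log2 difference of roX2 was -1.50 ± 0.88 from 24 h to 36 h (adjusted p = 0.445), -0.07 ± 0.89 from 36 h to 50 h (adjusted p = 0.985) and -1.42 ± 0.93 from 50 h to 84 h (adjusted p = 0.587).

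**Figure D1:**
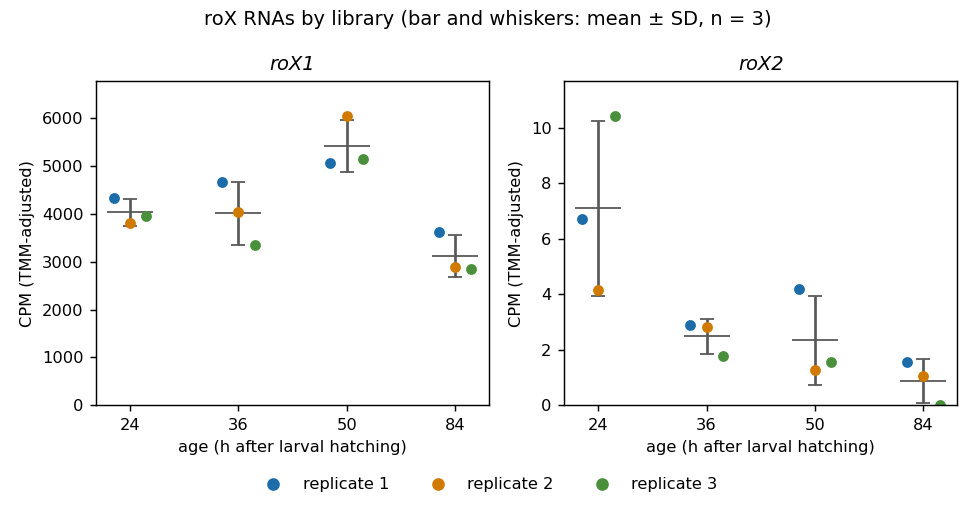
CPM after TMM scaling of roX1 (left) and roX2 (right) in each of the 12 libraries against age in h, with a bar and whiskers for the mean ± SD of 3 libraries. The roX1 libraries at 50 h, at 5065 to 6046 CPM, lie above all others, while roX2 runs from 4.14 to 10.4 CPM at 24 h down to 0 to 1.55 CPM at 84 h.

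The ratio of the 2 roX RNAs within a library, which needs no scaling between libraries, was then compared between ages. The sums over each age gave 598 roX1 counts per roX2 count at 24 h, 1616 at 36 h and 2159 at 50 h, against 3554 at 84 h. Over single libraries, with 0.5 added to each count, the ratio ran from 374 to 903 at 24 h, 1377 to 1790 at 36 h, 1187 to 4440 at 50 h and 2222 to 32869 at 84 h, the last value being that of the library without a roX2 count. The 24 h libraries were below all others. In an exact permutation test over all 369600 assignments of the libraries to ages, two-sided for any difference between ages in the log2 ratio, p was 0.0282 and the Benjamini-Hochberg value over 3 ratios 0.0424. The adjusted value was over the threshold in 7 of the 12 tests that left out 1 library, namely each of those at 24 h and 36 h and 50 h replicate 3, and was 0.188 without 24 h replicate 3.

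The ratio of roX2 to the geometric mean count of the 5 protein-coding members had a log2 mean of -2.97 ± 0.69 at 24 h, -4.43 ± 0.45 at 36 h and -4.92 ± 0.87 at 50 h, against -6.63 ± 2.1 at 84 h (exact permutation p = 0.00799, adjusted p = 0.024). It passed the threshold, but not without 24 h replicate 1, 24 h replicate 3, any 36 h library or 50 h replicate 3, where the adjusted p was 0.0591 to 0.188. The corresponding log2 ratio of roX1 was 6.26 ± 0.06, 6.18 ± 0.31, 6.38 ± 0.12 and 5.85 ± 0.40 at the 4 ages in turn and did not pass (exact permutation p = 0.127, adjusted p = 0.127).

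**Figure D2:**
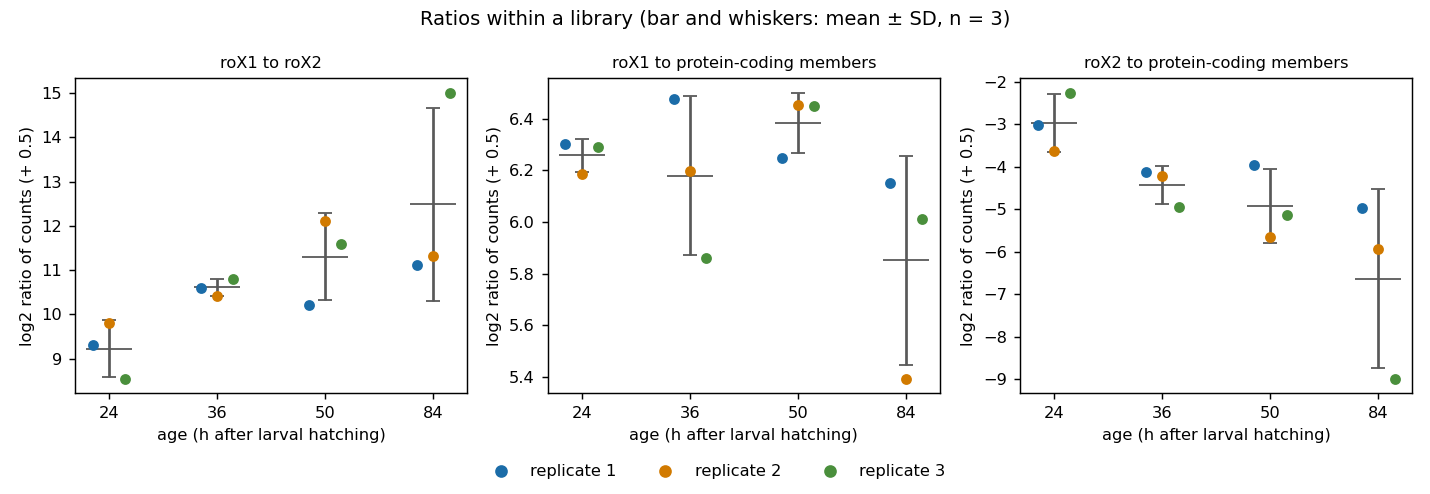
Log2 ratios of counts within each of the 12 libraries against age in h: roX1 to roX2, roX1 to the protein-coding members and roX2 to the protein-coding members, with 0.5 added to counts and a bar and whiskers for the mean ± SD of 3 libraries. The 24 h libraries have the lowest roX1 to roX2 ratios, and the highest single value, at 84 h, belongs to the library with 0 roX2 counts.

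Of the protein-coding members, msl-1, whose product is the scaffold of the complex, was the only one called with edgeR and TMM scaling. Its CPM was 102, 90.0 and 120 in the 24 h libraries, 122, 122 and 143 at 36 h, 168, 131 and 133 at 50 h, and 175, 165 and 150 at 84 h. All 24 h libraries lay below all others, and neighbouring later ages shared part of their ranges. Its mean went from 104 ± 14.9 CPM at 24 h through 129 ± 11.9 and 144 ± 20.8 to 163 ± 12.5 at 84 h. From 24 h to 84 h msl-1 rose by 0.65 ± 0.17 on the log2 scale, a level 1.57-fold higher (edgeR, adjusted p = 0.00923). That call held in all 21 alternatives, with adjusted p of 0.000615 to 0.0457. None of its steps between neighbouring ages passed: the log2 difference was 0.31 ± 0.17 (adjusted p = 0.41), 0.16 ± 0.17 (adjusted p = 0.703) and 0.18 ± 0.17 (adjusted p = 0.756) in turn.

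For msl-2, whose protein is made in males only, no comparison passed. Its CPM was 54.2, 60.3 and 49.2 at 24 h, 46.2, 48.8 and 47.6 at 36 h, 51.7, 64.9 and 40.1 at 50 h, and 36.8, 51.5 and 27.6 at 84 h. The ages overlapped except 24 h and 36 h. The log2 difference between 24 h and 84 h was -0.50 ± 0.25 (edgeR, adjusted p = 0.168), and it was above 0 under ERCC scaling.

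The chromodomain gene msl-3 was measured at 14.9 to 31.3 CPM at 24 h, 28.9 to 42.7 at 36 h, 37.1 to 39.9 at 50 h and 12.7 to 38.7 at 84 h. Its SD of log2 CPM within an age, 0.52, was larger than that of the other 4 protein-coding members and near the median of all genes tested, 0.46. The log2 difference between 24 h and 50 h, whose libraries did not overlap, was 0.64 ± 0.35 (edgeR, adjusted p = 0.221), and that between 50 h and 84 h was -0.61 ± 0.34 (adjusted p = 0.498).

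The helicase gene mle stood at 84.5 ± 21.7, 78.5 ± 6.99, 78.5 ± 3.41 and 90.7 ± 10.3 CPM at the 4 ages, with overlapping libraries in every comparison. The adjusted p of its 6 comparisons lay between 0.6 and 0.999 (edgeR).

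The acetyltransferase gene mof had CPM of 43.7, 44.3 and 24.5 at 24 h, 31.3, 32.6 and 29.5 at 36 h, 49.1, 61.8 and 42.5 at 50 h, and 27.8, 48.8 and 32.8 at 84 h. Its 36 h and 50 h libraries did not overlap, with a log2 difference of 0.71 ± 0.28 that did not pass (edgeR, adjusted p = 0.164). With roX1, mof made 2 of 7 members without overlap between 36 h and 50 h, beside 25.3% of all genes.

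**Figure D3:**
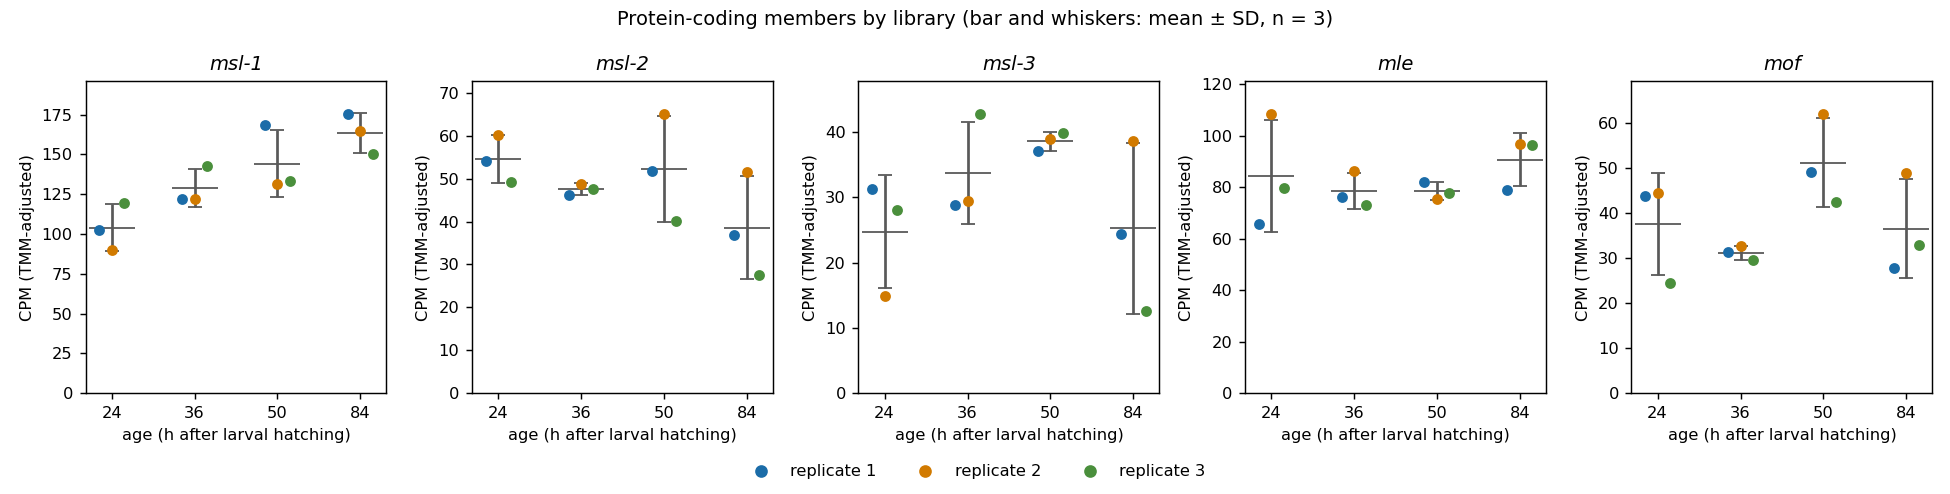
CPM after TMM scaling of msl-1, msl-2, msl-3, mle and mof in each of the 12 libraries against age in h, with a bar and whiskers for the mean ± SD of 3 libraries. msl-1 goes from 104 CPM on average at 24 h to 163 at 84 h with no overlap between these ages, while the ages overlap in most comparisons of the other genes.

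Across the other comparisons no member was called. From 24 h to 36 h 0 of 7 passed beside 0.902% of all genes, and roX2, msl-1 and msl-2 had libraries that did not overlap, beside 16% of all genes. From 36 h to 50 h 0 of 7 passed beside 4.25%. Between 24 h and 50 h 0 of 7 passed beside 16.4%, with roX1, msl-1 and msl-3 not overlapping beside 31.5%, and msl-1 alone passed without 24 h replicate 3 (log2 difference 0.59, adjusted p = 0.0318) and roX1 alone without 84 h replicate 1. Between 36 h and 84 h 0 of 7 passed beside 9.6%, with roX2 and msl-1 not overlapping beside 30.1%. In the comparison of 84 h with 24 h, 3 of 7 members, roX1, roX2 and msl-1, did not overlap, beside 33.4% of all genes. At an unadjusted p under 0.05 the number of members was 0 from 24 h to 36 h, 2 from 36 h to 50 h, 2 between 24 h and 50 h and 1 between 36 h and 84 h, beside 14.7%, 17.4%, 29.9% and 21.9% of all genes in turn. DESeq2 called 0 members in each of these 4 comparisons, beside 2.48%, 6.62%, 20.3% and 12.3% of all genes.

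**Figure D4:**
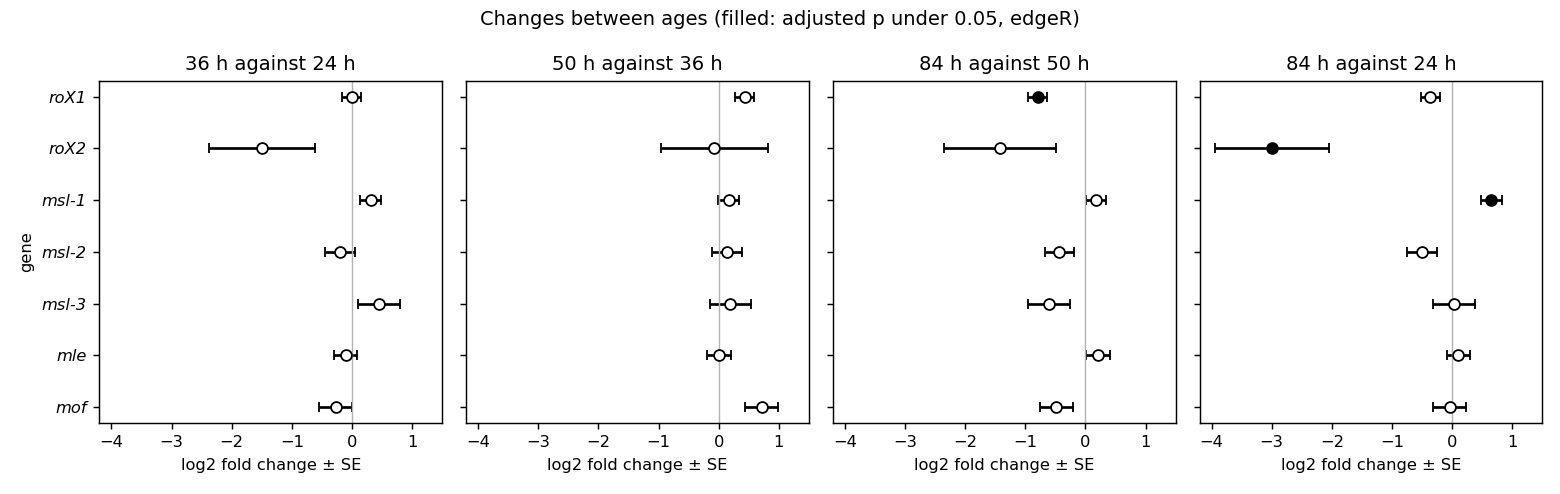
Log2 fold change ± SE of each of the 7 members in the 3 steps between neighbouring ages and between 84 h and 24 h, by edgeR on all 12 libraries. Filled points, with an adjusted p under 0.05, are roX1 from 50 h to 84 h (-0.79) and roX2 (-2.99) and msl-1 (0.65) between 24 h and 84 h.

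The median log2 difference of the 7 members was -0.11 from 24 h to 36 h, 0.16 from 36 h to 50 h and -0.49 from 50 h to 84 h, where the medians of all genes tested were -0.01, 0.03 and -0.01. For 84 h against 24 h it was -0.04 beside 0.01. Libraries of an age were close together for roX1 and msl-1, with within-age SDs of 0.18 and 0.17 on the log2 scale that rank at percentiles 7.01 and 5.82 among the genes tested. roX2, with its low counts, had 0.83, at percentile 79.3. By mean CPM roX1, msl-1 and roX2 stood at percentiles 99.9, 86.8 and 15.7, and their spread was not compared with that of genes of like level.

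Over the 12 libraries 3 pairs of members were related to each other, each on log2 CPM and with permutation p-values from 100000 resamples. For roX2 with msl-2 Pearson's r was 0.62 (p = 0.0385, Benjamini-Hochberg value over the 3 pairs 0.116) and Spearman's rho 0.39 (p = 0.21, adjusted 0.276), and r was 0.26 without the 2 libraries farthest from the median of roX2, 24 h replicate 3 and 84 h replicate 3. For roX1 with msl-2 r was 0.49 (p = 0.103, adjusted 0.154) and rho 0.38 (p = 0.218, adjusted 0.276), and without 50 h replicate 2 and 84 h replicate 3 r was -0.13. For roX1 with roX2 r was 0.39 (p = 0.211, adjusted 0.211) and rho 0.34 (p = 0.276, adjusted 0.276), and r was 0.36 without the same libraries. None passed after adjustment. Leaving out 84 h replicate 3 alone, the library with no roX2 count, took r to 0.19 for roX2 with msl-2 and to 0.23 for roX1 with msl-2, and leaving out 24 h replicate 3 alone put the former at 0.68. On deviations from the age means, r was 0.30, 0.16 and 0.31 in the same order.

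The genes whose log2 CPM over the 12 libraries was most like that of a member were named by rule among 5003 genes with a mean of at least 10 CPM. For roX1 they were ytr (r = 0.91), Gdh, a glutamate dehydrogenase (0.88), and desat1, a fatty acid desaturase (0.88). ytr averaged 1092, 1857, 5355 and 929 CPM at 24, 36, 50 and 84 h, and Gdh 575, 544, 688 and 317 CPM. For roX2 they were CG9380 (0.91), Nrx-1, the neurexin of synaptic adhesion (0.89), and CG16742 (0.86), and Nrx-1 averaged 37.7 CPM at 24 h and 2.4 CPM at 84 h. For msl-1 they were Nup44A, a nuclear pore gene (0.92), CG9586 (0.90) and Oscillin (0.90). None of the 9 lies on the X chromosome. In the edgeR test over all ages Gdh, CG9380, Nrx-1 and CG9586 passed, beside 19.5% of all genes. There ytr (adjusted p = 0.0821), desat1 (0.132), CG16742 (0.126), Nup44A (0.261) and Oscillin (0.0582) did not. These coefficients share the libraries and their scaling and describe likeness only.

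Genes that act with the members were taken as lists. Of 15 cofactors of the MSL complex or its target chromatin, 4 passed the test for any difference between ages, beside 19.5% of all genes: Lam, the B-type lamin (edgeR, adjusted p = 0.00419), Rm62, an RNA helicase (0.0197), Trl, the GAGA factor (0.0275), and Iswi, a nucleosome remodeller whose loss distorts the male X chromosome (0.0447). Between 24 h and 84 h, 1 was called higher, the gene of heterochromatin protein HP1a, singled out after its values were seen, and 2 lower, beside 8.16% of all genes called higher and 10.7% lower, and the median log2 difference was 0.04 beside 0.01 for all genes. Lam went from 764 ± 108 CPM at 24 h to 408 ± 104 at 84 h (log2 difference -0.91 ± 0.19, adjusted p = 0.00128), and Iswi from 401 ± 65.7 to 272 ± 24.9 CPM (-0.56 ± 0.16, adjusted p = 0.0158). Under ERCC scaling both differences were above 0, at 0.53 and 0.91. The call of Iswi between 24 h and 84 h was lost without 24 h replicate 1 or without 84 h replicate 2 or 3, with adjusted p of 0.0735 to 0.103, without TMM (log2 difference -0.14, adjusted p = 0.488) and on both TPM scales (0.124 and 0.13). In the test over all ages Iswi was lost in 8 of the 12 tests that left out 1 library (adjusted p up to 0.208). Rm62 was lost there without 24 h replicate 1 or 50 h replicate 1 or 3 (up to 0.0728), and Trl without 36 h replicate 2 or 84 h replicate 2 or 3 (up to 0.0998). In that test over all ages Rm62, Trl and Iswi also missed the threshold without TMM (0.0836, 0.215 and 0.278), on log2(TPM + 1) (0.139, 0.331 and 0.148) and under ERCC scaling (0.248, 0.508 and 0.0601), and Lam missed it on log2(TPM + 1) (0.0719) and under ERCC scaling (0.242). CLAMP, the factor that recruits the complex to the X chromosome and is listed as CG1832, was not among those called.

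Regulators of msl-2 and genes of the sex determination pathway were lower at 84 h than at 24 h where they were called with TMM scaling, while most lay above 0 under ERCC scaling. Of 18 listed genes 16 were tested, and 5 were called lower and 0 higher between 24 h and 84 h, beside 10.7% of all genes called lower and 8.16% called higher. The median log2 difference of the 16 was -0.42 beside 0.01 for all genes, and 3 of them were above 0. Under ERCC scaling, which moved the median of all genes to 1.48, 14 of the 16 were above 0, 0 were called, and their median lay 0.37 below that of all genes. Without TMM, which put the median of all genes at 0.43, 2 were called lower and the median lay 0.43 below.

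In that list fru, which directs male courtship circuits and is spliced by sex, fell from 670 ± 124 CPM at 24 h through 537 ± 52.5 and 443 ± 36.2 to 188 ± 39.0 at 84 h. Its 3 libraries at 84 h, at 163 to 233 CPM, lay below all others, with a log2 difference from 24 h of -1.83 ± 0.18 (edgeR, adjusted p = 1.14e-07) that was -0.38 under ERCC scaling (adjusted p = 0.588). Unr, the RNA-binding partner of Sex-lethal on msl-2 mRNA, went from 2063 ± 286 to 1095 ± 187 CPM, a log2 difference of -0.91 ± 0.17 (adjusted p = 0.000642) that was 0.52 under ERCC scaling.

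Sxl itself, the female switch gene, was at 188 ± 32.7 CPM at 24 h, 144 ± 23.1 at 36 h and 120 ± 12.5 at 50 h, against 126 ± 24.1 at 84 h. All 24 h libraries, at 154 to 220 CPM, lay above those at 84 h, at 99.2 to 146 CPM, with a log2 difference of -0.58 ± 0.19 (edgeR, adjusted p = 0.0321) that was 0.86 under ERCC scaling. The call was lost without 24 h replicate 1 or 2 and without 84 h replicate 2 or 3, with adjusted p of 0.0587 to 0.188, without TMM (log2 difference -0.16, adjusted p = 0.537) and with sorted cells as a covariate (adjusted p = 0.063), and the counts do not tell female from male splice forms. how, whose product helps to keep msl-2 RNA in the nucleus, went from 196 ± 11.2 to 121 ± 18.6 CPM (-0.70 ± 0.18, adjusted p = 0.00777, lost without 84 h replicate 2 at 0.061), and its log2 difference was 0.69 under ERCC scaling. The call of how was also lost without TMM (-0.30, adjusted p = 0.22) and on both TPM scales (0.113 and 0.115). The X-linked segmentation and sex-signal gene run, outside the naming rule and named after its values were seen, went from 28.8 ± 10.5 to 12.5 ± 2.2 CPM (-1.20 ± 0.35, adjusted p = 0.0184) and was 0.16 under ERCC scaling. It was lost without 24 h replicate 2 or 3 or 84 h replicate 2, with adjusted p of 0.0559 to 0.091, without TMM (-0.81, adjusted p = 0.141) and on both TPM scales (0.134 on each). All 5 also passed the test over all ages. In that test, leaving out 1 library ended no call of fru or Unr, 4 of 12 for how, 7 of 12 for Sxl and 9 of 12 for run.

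MOF also works in the NSL complex, which acts on autosomal promoters in both sexes. Of its 6 listed genes Rcd5 alone passed the test over all ages, beside 19.5% of all genes, going from 88.2 ± 19.9 CPM at 24 h to 40.6 ± 12.7 at 84 h (log2 difference -1.12 ± 0.25, edgeR, adjusted p = 0.00222), a difference that was 0.32 under ERCC scaling. Of the 3 tested acetyltransferases of the same MYST family as MOF, 0 passed over all ages with edgeR. Named for its level, enok had an adjusted p of 0.0556 in that test, and 0.0341 with DESeq2. Between 24 h and 84 h it went from 200 ± 35.5 to 135 ± 12.2 CPM (-0.57 ± 0.18, adjusted p = 0.0292), a difference that was 0.91 under ERCC scaling. That call was lost without 24 h replicate 2 or 3 and without 84 h replicate 2 or 3, with adjusted p of 0.0522 to 0.134, without TMM (-0.16, adjusted p = 0.55), on both TPM scales (0.317 and 0.31) and with sorted cells as a covariate (0.063). Of 12 listed Y-linked genes, known for transcription in testis, 8 were in the table and all had 0 counts in every library, and the others were not analysed here.

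**Figure D5:**
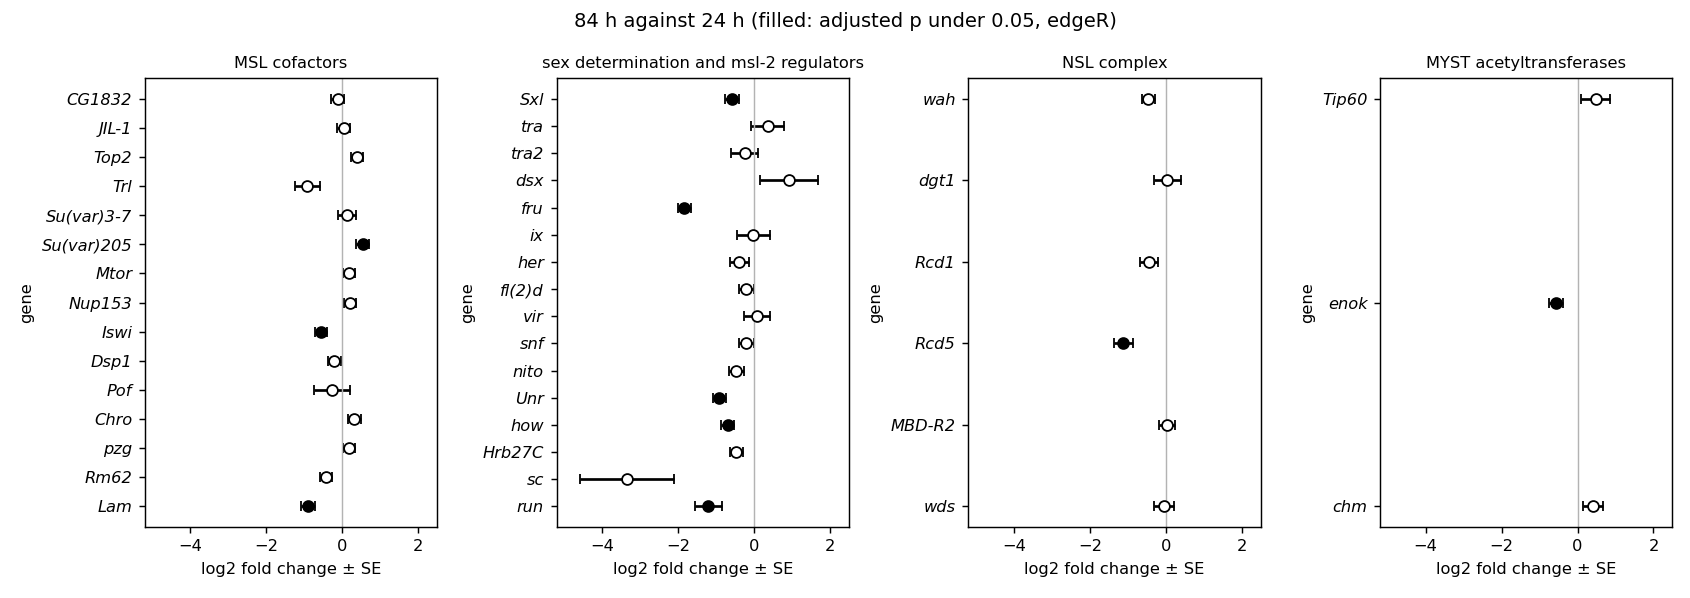
Log2 fold change ± SE between 24 h and 84 h of each tested gene of the 4 lists, by edgeR on all 12 libraries. Filled points, with an adjusted p under 0.05, lie below 0 for 5 of the 16 sex determination genes and msl-2 regulators.

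X-linked and autosomal genes were also set side by side, as shares, medians and counts without a test. X-linked genes took 30.8% to 33.0% of gene counts in the 24 h libraries and 24.9% to 29.7% in those of later ages. Without roX1 and the X-linked gene Imp, which took 4.24% to 5.97% at 24 h, the shares were 26.1% to 26.7% and 21.8% to 29.3%. Between 24 h and 84 h the median log2 difference of 1358 X-linked genes was -0.05 and that of 6588 autosomal genes 0.02, and 19.0% and 18.8% of them were called. From 50 h to 84 h, when roX1 fell, the medians were -0.02 and -0.01, and 2.95% and 3.07% were called.

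Markers of the sorted type and of neighbouring cells give the setting. Over all ages 19.5% of all genes were called. The 10 type II neuroblast markers, all tested and 6 of them called over all ages, summed to 2948 to 4522 CPM per library, and no library had under 613 counts of dpn or under 1947 of mira, which mark neuroblasts. From 50 h to 84 h, where roX1 fell, 3 of the 10 were called lower and 0 higher, beside 3.06% of all genes called: CycE was 2.02-fold lower, tll 1.97-fold and Sp1 1.7-fold (edgeR, adjusted p of 0.00414, 0.00496 and 0.0176). The 6 intermediate progenitor markers, of which 3 were tested and 1 was called, summed to 34.8 to 47.1 CPM at 24 h, 34.4 to 69.3 at 36 h, 66.5 to 105 at 50 h and 9.79 to 11.1 at 84 h, mostly from D up to 50 h, while erm, ham and opa stayed at or near 0. At 84 h D averaged 4.86 CPM of a mean sum of 10.4. From 50 h to 84 h D alone of the 3 tested was called, 15.6-fold lower (edgeR, adjusted p = 2.23e-07). The sum of these 6 markers was highest at 50 h and lowest at 84 h, as roX1 was in TMM-scaled CPM, and its part in the roX1 result was not tested. The 10 neuron markers, of which 6 were tested and 3 called, summed to 216 to 253 CPM at 24 h, 168 to 238 at 36 h, 223 to 270 at 50 h and 254 to 356 at 84 h, nearly all from elav, while the synaptic markers other than brp averaged under 10 CPM at every age and brp reached 12.96 CPM at 50 h. From 50 h to 84 h 1 of the 6 tested, elav, was above 0, uncalled (edgeR, adjusted p = 0.118). Only brp was called there, 9.0-fold lower (edgeR, adjusted p = 0.0495), beside 3.06% of all genes. The 10 glia markers, of which 6 were tested and 2 called, summed to 400 to 534 CPM at 24 h, 544 to 658 at 36 h, 521 to 599 at 50 h and 370 to 446 at 84 h, mostly from Eaat1 and nrv2, while the defining glial factor repo averaged at most 1.89 CPM. From 50 h to 84 h 0 of these 6 were above 0, and Eaat1 alone was called, 2.22-fold lower (edgeR, adjusted p = 0.000245). The 8 optic lobe and eye disc markers, of which 6 were tested and 4 called, summed to 520 to 669 CPM at 24 h and 291 to 385 at 84 h. Between these ages, where roX2 and msl-1 were called, ey was 9.06-fold higher and so, eya, hth and run were 1.85-fold to 2.3-fold lower, 5 of 6 called beside 18.9% of all genes. The 9 hemocyte and fat body markers in the table, of which 1 was tested and 0 called, summed to 2.17 to 29.5 CPM. The part of all these markers in the results was not tested. ERCC spike-ins took 0.12% to 0.939% of the counts, highest in 24 h replicates 1 and 2 and lowest in 50 h replicate 1. Scaling to them moved the median log2 difference of all genes to 1.98 between 24 h and 50 h. Between 50 h and 84 h it moved that median to -0.48.

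The strand setting of the counting is not stated in the labels, so reads from overlapping genes cannot be told apart. In a later annotation roX1 overlaps ec on the opposite strand, which held 296 to 944 counts per library beside 16434 to 31444 for roX1, and msl-3 overlaps form3 on the opposite strand, which held 0 to 23.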

How the data were processed

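The authors deposited a table of read counts per gene symbol and ERCC RNA, whole numbers with no scaling, and a table of TPM per gene. Per the submitters' processing notes HTSeq 0.6.1p1, STAR 2.4.0i, Bowtie2 2.1.0, cutadapt 1.7.1 and CASAVA were named, without their order or settings. How the TPM were made and whether counting used strand is not stated there. Per the labels' protocols, RNA was amplified with the Ovation RNA-Seq System V2, which carries no molecular identifiers, so intervals and floors cover counting error only.

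The members and lists were chosen with earlier results of these data known. From the counts, 92 ERCC rows and 1 row without a symbol (at most 8.87e-05% of the counts of a library) were set aside. edgeR 4.0.16 (TMM, filterByExpr by age with a count minimum of 10, robust quasi-likelihood fit) in R 4.3.3 was run on all 12 libraries with age as the factor and 8 residual degrees of freedom. After the filter 7978 genes remained, which hold 99.85% of the gene counts, the biological coefficient of variation was 36.2%, and p-values are two-sided, adjusted by Benjamini-Hochberg within each comparison. The SE of a log2 fold change is its size divided by the square root of F.

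Ratios and correlations were computed with numpy 2.4.6 and scipy 1.17.1. Symbols were placed on chromosomes by a BDGP6 annotation, later than the builds named in the notes, for 7946 of the 7978 genes, and no coordinates are used. All 7 members were named. From each list up to 4 genes past the threshold over all ages were named, smallest adjusted p first, or the gene of highest CPM, with the 3 most alike genes for roX1, roX2 and members past the threshold. Alternatives were DESeq2 1.42.0 and its size factors, no TMM, ERCC scaling, limma 3.58.1 on log2(TPM + 1) and log2(TPM + 0.1), no filter, sorted cells as a covariate, the replicate number as a block, and each library left out.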

Additional observations from a re-analysis of the deposited data

How the results depend on the processing

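Of 1029 results of the 7 members under the alternatives, 982 kept their side of the threshold (58 of them changed sign without being called), 26 were called only under the alternative, 18 lost their call and 3 reversed. The cause of these changes was not tested. The 3 reversals came under ERCC scaling: mof between 24 h and 84 h at 1.7, and msl-2 at 1.91 and mle at 1.89 between 24 h and 50 h, called there (adjusted p of 0.0467, 0.0131 and 0.011). With TMM these 3 were -0.04, -0.06 and -0.11 and uncalled (edgeR, adjusted p of 0.932, 0.899 and 0.762). Under ERCC scaling the median of all genes was 1.48 between 24 h and 84 h and 1.98 between 24 h and 50 h. Thus msl-2 and mle lay below that median and mof above it. Named genes outside the members, run under the same alternatives by a choice made after seeing the data, reversed between 24 h and 84 h under ERCC scaling for Lam (0.53), Iswi (0.91), Unr (0.52), how (0.69), Sxl (0.86), run (0.16), Rcd5 (0.32) and enok (0.91). None of these 8 was called there (adjusted p of 0.203 to 0.849), and all lay below the median of all genes, 1.48, which that scaling had moved by 1.46. The members called over all ages, 2, became 5 under ERCC scaling (beside 34.8% of all genes), 3 with DESeq2 (25%) and 1 without a filter (15.9%). The 0 called between 24 h and 50 h became 2 without TMM (beside 16.6% of all genes), 2 on log2(TPM + 1) (12.1%), 2 on log2(TPM + 0.1) (11.6%), 6 under ERCC scaling (65.8%), 1 with the replicate block (17.6%) and 1 with sorted cells as a covariate (9.04%). The 0 called between 36 h and 50 h became 1 without TMM (4.41%), on each TPM scale (2.58% and 2.35%) and with the replicate block (5.6%), the 0 between 36 h and 84 h became 1 without TMM (11.8%), and the 1 between 50 h and 84 h became 0 under ERCC scaling (0.414%). The correlation of roX1 with msl-2 was 0.942 under ERCC scaling, beside 0.492 with TMM. That of roX2 with msl-2 was 0.415 under ERCC scaling and that of roX1 with roX2 0.34. In this scaling both genes of a pair are divided by the same ERCC total, which ran from 6930 to 73316 counts per library. The part of that shared divisor in these values was not tested. Leaving out 1 library gave 0 to 2 members called over all ages, 0 to 1 between 24 h and 50 h, 1 to 3 between 24 h and 84 h, 0 to 1 between 50 h and 84 h and 0 in the other comparisons. It gave adjusted p of 0.0193 to 0.188 for roX1 to roX2, 0.00195 to 0.188 for roX2 to the protein-coding members and 0.0548 to 0.36 for roX1 to them, and r of 0.194 to 0.784 for roX2 with msl-2, 0.232 to 0.62 for roX1 with msl-2 and 0.0759 to 0.589 for roX1 with roX2. Deviations of libraries of equal replicate number correlated at r of -0.089 to 0.157 over 18 pairs, with a median of 0.037. Over 36 pairs of unequal number r was -0.127 to 0.131, with a median of -0.016. Of 12 libraries, 6 correlated best with their own number. These values do not settle whether the numbers pair the libraries. With the replicate block 1681 genes were called over all ages beside 1556 without it, and roX1 was called between 24 h and 84 h (-0.37, adjusted p = 0.0485). Depth limits roX2, with under 10 counts in 6 libraries.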
